A study of Homo sapiens with 6 samples.

Results

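Direct transcriptional outputs of SMAD signaling were examined in CD31+ cells differentiated from the H1 human embryonic stem cell line, namely ID1, ID2, ID3, ID4, SMAD6, SMAD7, BAMBI, SKIL and PMEPA1. They were taken by symbol from a table of 58364 rows with values, and each of the 9 symbols stood on 1 row. All 9 were above the filter on low values, as were 15895 genes in all, and the rule itself uses symbols only. Relative to WT cells, ID2 and BAMBI were higher in the libraries labelled MSX2-/-, by about 2.4-fold and 2.6-fold in mean FPKM. SMAD6 and SMAD7 were 1.54-fold and 1.77-fold higher, and they passed the test where libraries of the same replicate number were matched. For both, that call was lost in most of the fits that left out 1 library. Without that matching, the calls of ID2 and BAMBI were lost whenever 1 library labelled MSX2-/- was left out. With it, both calls were kept in those fits. ID1, the most abundant of the 9 in WT cells, had nearly the same mean in both genotypes and followed the replicate number instead.

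Bone morphogenetic proteins (BMPs) and TGFβ bind serine/threonine kinase receptors at the cell surface. BMP receptors mainly phosphorylate SMAD1, SMAD5 and SMAD9, TGFβ and activin receptors mainly SMAD2 and SMAD3, and either group enters the nucleus with SMAD4. The ID genes are classical BMP targets, and in endothelium ID1 and ID3 are commonly read as a measure of BMP9, BMP10 and ALK1 activity. SMAD6, SMAD7, BAMBI, SKIL and PMEPA1 are induced by SMADs and in turn restrain the pathway. These transcripts therefore read signaling output rather than the amount of ligand, although most also respond to other inputs.

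The cells were of the H1 line at day 8 of hematopoietic differentiation, at which hemogenic endothelium gives rise to hematopoietic cells. The 2 WT libraries were wild type, and the 4 libraries labelled MSX2-/- came from 2 single-cell-derived lines, called 1# and 2# in the column names, with replicates 1 and 2 of each. The lines were made by lentiviral CRISPR/Cas9 with a guide to exon 2 of MSX2 and puromycin selection. Colonies were then picked after dissociation to single cells, so each is 1 clone. The study does not describe these steps for WT, so their part cannot be told apart from that of genotype. The tests of 4 libraries against 2 count the 2 libraries of a clone separately. The labels give the CD31+ sort for the libraries labelled MSX2-/- alone, and the study's results describe CD31+ cells for WT as well. The labels' protocol describes activin A and BMP4 for the first 2 days and VEGF and bFGF for the next 2, and it names an overexpression of HAND1 that the study does not mention. No label states whether the replicates were separate cultures, so p-values measure the spread between these libraries. FPKM, fragments per kilobase of transcript scaled to all mapped fragments, was the measure, and FPKM values summed to between 555286 and 617120 per library. The number of reads is unknown, and depth relative to WT replicate 1 was estimated at 1.02 to 1.18 for the others.

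MSX2 mRNA was 3.64 and 1.44 FPKM in WT replicates 1 and 2, 18.0 and 5.62 in 1#, and 31.8 and 6.69 in 2#. It was thus higher in all 4 libraries labelled MSX2-/- than in both WT libraries, with a log2 fold change of 1.99 ± 0.69 (SE, adjusted p = 0.309), or ± 0.28 (adjusted p = 0.0107) with the replicate block. An edit by Cas9 need not remove the transcript, so this level does not check the genotype. The study reports that sequencing of DNA from both clones showed the MSX2 edit. Which libraries are MSX2-/- is taken from the labels, and each direction below rests on them. PECAM1, which encodes CD31, was between 186 and 258 FPKM in the 6 libraries. The cells also held hematopoietic transcripts, while PTPRC, which encodes CD45, was at most 0.115 FPKM in any library.

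The promoters of 4 of the genes are shown, chosen by their levels. Those of BAMBI, ID2 and SMAD6 differed between the genotypes in at least 1 of the tests, and that of ID1 in neither. SMAD7 also differed in 1 of the tests, with the replicate block, but its promoter is not among the 4. Each sequence shown is the stretch before the RefSeq start (GRCh38.p14, strand of the gene). It is cut where an annotated exon of the gene begins, except for the last bases of SMAD6. Capitals mark GTCTAGAC (the palindromic SMAD element), CAGAC (a single SMAD box) and GGCGCC (a GC-rich BMP SMAD element), searched on both strands.
BAMBI, chr10:28677271-28677341: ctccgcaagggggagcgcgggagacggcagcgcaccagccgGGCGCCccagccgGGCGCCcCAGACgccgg
SMAD6, chr15:66701986-66702235: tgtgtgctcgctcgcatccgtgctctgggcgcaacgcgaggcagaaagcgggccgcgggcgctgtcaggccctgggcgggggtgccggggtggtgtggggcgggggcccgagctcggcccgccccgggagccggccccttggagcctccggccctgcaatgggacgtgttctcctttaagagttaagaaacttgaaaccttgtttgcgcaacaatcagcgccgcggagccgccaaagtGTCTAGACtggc
ID2, chr2:8681806-8681853: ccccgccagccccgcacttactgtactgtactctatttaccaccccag
ID1, chr20:31605039-31605282: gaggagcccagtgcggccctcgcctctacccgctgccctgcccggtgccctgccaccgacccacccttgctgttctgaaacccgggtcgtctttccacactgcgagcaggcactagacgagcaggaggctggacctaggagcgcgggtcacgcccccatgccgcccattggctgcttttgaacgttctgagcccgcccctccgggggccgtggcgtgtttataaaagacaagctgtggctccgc
In the 250 bases before its start, BAMBI held GGCGCC at 209, 196 and 181 bases from the start and CAGAC at 189 and 140. The GGCGCC at 181 is only partly in the stretch shown, and the CAGAC at 140 lies beyond it. GGCGCC was present in 16.4% and CAGAC in 38.0% of 35116 such RefSeq windows. These shares are not matched for base content. G and C made up 81.2% of the BAMBI window, against a median of 58% over all windows. SMAD6 was the 1 member with GTCTAGAC, found in 0.182% of windows. The last bases of this match, AGAC, lie in the annotated exon of SMAD6, and a cut at that exon leaves 0 matches. ID1 and ID2 held none of the 3 in these 250 bases.

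Over the 14 windows of the 9 genes, which include alternative starts of SMAD7 and PMEPA1, CAGAC was found for 6 genes (BAMBI, ID3, ID4, PMEPA1, SKIL and SMAD7). GGCGCC was found for BAMBI, PMEPA1 and SKIL. Counted by window, CAGAC was in 8 of the 14 (57.1%), against 38.0% of all windows. GGCGCC was in 3 of the 14 (21.4%), against 16.4%. GGCGCC followed after 5 bases by GTCT, the composite BMP element, was in 0.0769% of all windows and in none of the 14. TAATTG, a core sequence bound by MSX homeodomains, was found for SMAD7 in a window of an alternative start and in 6.70% of all windows. CANNTG is the E-box at which ID proteins prevent binding of bHLH factors. It was found for ID2, ID4, PMEPA1 and SMAD7, in 6 of the 14 windows (42.9%) and in 61.8% of all windows. Apart from the composite element, which includes GGCGCC, no motif contains another. These matches are a description of the letters in a short window and show no binding.

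In WT cells the 9 genes spanned more than an order of magnitude on the FPKM scale, which is per transcript length. The mean levels of the 2 WT libraries were 329 FPKM for ID1, 243 for SMAD6, 123 for ID3, 70.5 for PMEPA1, 58.0 for ID2, 40.6 for BAMBI, 26.3 for SMAD7, 14.8 for SKIL and 9.23 for ID4. Among neighbours in this order, the WT ranges of ID1 and SMAD6 overlapped, as did those of PMEPA1 and ID2, and the other neighbours were apart in both libraries.

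The first question was whether the BMP-responsive ID genes differed between WT and MSX2-/- libraries. ID proteins lack a DNA-binding region and hold E proteins and other bHLH factors away from DNA, and they are known to delay differentiation in several lineages. ID2 was 52.2 and 63.8 FPKM in WT replicates 1 and 2, 124 and 148 in 1#, and 116 and 178 in 2#. Every library labelled MSX2-/- was well above both WT libraries, without overlap. For ID2 the log2 fold change was 1.26 ± 0.19 (SE, 4 libraries against 2, adjusted p = 0.0404), with a 95% interval from 0.80 to 1.73. A block for the replicate number gave an SE of 0.09 and an adjusted p of 0.00163.

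ID1 behaved differently from ID2. ID1 was 428 and 229 FPKM in WT replicates 1 and 2, 427 and 241 in 1#, and 412 and 279 in 2#. The 3 libraries of replicate 1 were alike and well above those of replicate 2 in each genotype, and the ranges of the genotypes overlapped almost entirely. Between genotypes the log2 fold change was 0.07 ± 0.33 (SE, adjusted p = 0.976), and with the block the 95% interval ran from -0.13 to 0.28 (adjusted p = 0.629).

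ID3, a close homologue of ID1, had the same pattern with a lower level in libraries labelled MSX2-/-. ID3 was 137 and 109 FPKM in WT, 123 and 79.0 in 1#, and 129 and 83.0 in 2#, and each library labelled MSX2-/- was below the WT library of its replicate number. For ID3 the log2 fold change was -0.27 ± 0.24 (SE, adjusted p = 0.783), or ± 0.09 with the block (adjusted p = 0.101), and neither passed the threshold. ID4, the least abundant of the family in these cells, was 8.92 and 9.54 FPKM in WT, 13.4 and 12.4 in 1#, and 18.0 and 11.8 in 2#. Although its genotypes did not overlap, ID4 did not pass the test, with a log2 fold change of 0.52 ± 0.19 (SE, adjusted p = 0.348), and the blocked adjusted p was 0.0891.

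The makeup of ID transcripts was described by shares of their summed level, with no test. ID2 made up 8.33% and 15.5% of the summed FPKM of ID1 to ID4 in WT replicates 1 and 2, 18.1% and 30.9% in 1#, and 17.2% and 32.3% in 2#. Within a replicate number the share of ID2 was about double that of WT in both clones. The share of ID1 was 68.3% and 55.7% in WT, 62.1% and 50.1% in 1#, and 61.0% and 50.5% in 2#. The sum of the 4 genes was 627 and 412 FPKM in WT, 688 and 481 in 1#, and 675 and 552 in 2#, so the sums of the genotypes overlapped across replicate numbers.

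The inhibitory SMADs were compared next. SMAD6 preferentially blocks BMP receptor signaling and is abundant in endothelium, and SMAD7 blocks both branches and recruits ubiquitin ligases to the receptors. SMAD6 was 302 and 184 FPKM in WT, 397 and 339 in 1#, and 379 and 382 in 2#. The lowest library labelled MSX2-/- was only slightly above WT replicate 1, and most of the distance came from the low value in WT replicate 2. For SMAD6 the log2 fold change was 0.66 ± 0.19 (SE, adjusted p = 0.225), or ± 0.14 (adjusted p = 0.0357) with the block.

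SMAD7 was 31.3 and 21.3 FPKM in WT, 41.6 and 47.8 in 1#, and 49.1 and 48.0 in 2#, again without overlap. Its log2 fold change was 0.83 ± 0.17 (SE, adjusted p = 0.0966), or ± 0.15 (adjusted p = 0.0238) with the block. Both blocked calls were lost without WT replicate 2, when the log2 fold change was 0.36 for SMAD6 (adjusted p = 0.118) and 0.52 for SMAD7 (adjusted p = 0.0942). They were also lost without 1# replicate 2, 2# replicate 1 or 2# replicate 2, with adjusted p from 0.0516 to 0.0925, and that of SMAD6 without 1# replicate 1 (adjusted p = 0.0836).

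BAMBI encodes a transmembrane pseudoreceptor that resembles a type I receptor but has no kinase, and it dampens BMP and TGFβ signaling at the membrane. BAMBI was 32.5 and 48.6 FPKM in WT, 91.6 and 105 in 1#, and 116 and 110 in 2#. All MSX2-/- values were far above both WT values, and BAMBI had the largest log2 fold change of the 9 genes, 1.38 ± 0.18 (SE, adjusted p = 0.0292), with a 95% interval from 0.95 to 1.82. The blocked SE was 0.14 and the adjusted p 0.00433.

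SKIL and PMEPA1 are commonly used as readouts of TGFβ and activin. SKIL encodes SnoN, a co-repressor of SMAD2, SMAD3 and SMAD4, and was 15.1 and 14.5 FPKM in WT, 17.6 and 23.3 in 1#, and 16.2 and 21.6 in 2#. Its genotypes did not overlap, but 2# replicate 1 was only 1.07 times the WT library of the same number, and the log2 fold change of 0.38 ± 0.18 (SE) did not pass (adjusted p = 0.497, 0.115 with the block). PMEPA1 encodes a membrane protein that sequesters SMAD2 and SMAD3. PMEPA1 was 93.6 and 47.4 FPKM in WT, 82.1 and 87.7 in 1#, and 80.9 and 75.5 in 2#, so that all 4 MSX2-/- values lay between the WT values. The log2 fold change of PMEPA1 was 0.28 ± 0.25 (SE, adjusted p = 0.783, 0.442 with the block).

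**Figure D1:**
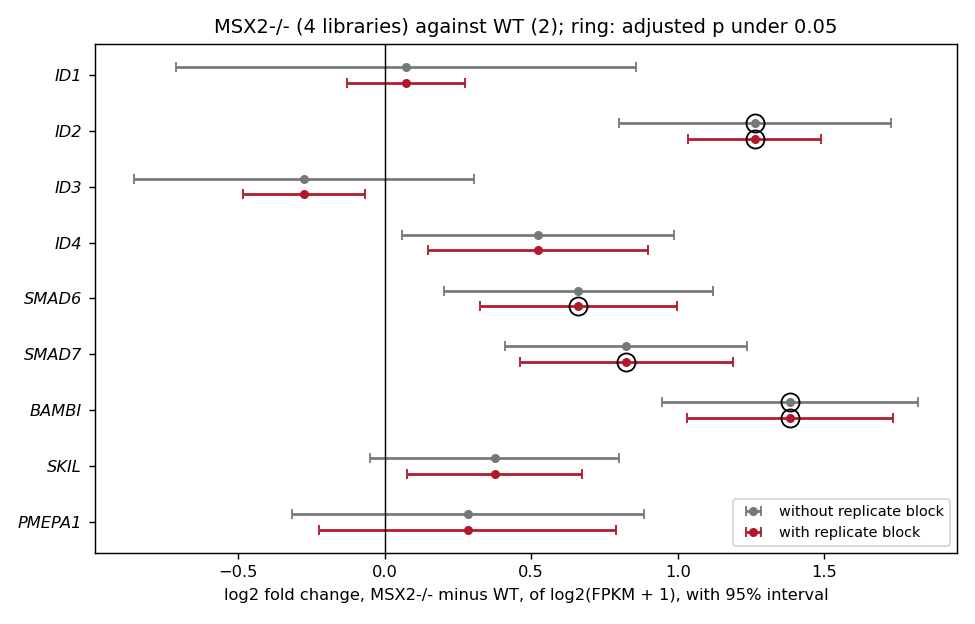
Log2 fold change of each gene, MSX2-/- minus WT on log2(FPKM + 1), with its 95% interval (horizontal axis), without the replicate block in gray and with it in red; rings mark an adjusted p under 0.05. ID2 and BAMBI are ringed in both fits, and SMAD6 and SMAD7 with the block alone.

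Of the 9 genes, 2 passed the test as higher and 0 as lower. Over all genes tested, 0.963% were called higher and 0.321% lower. With the block 4 were higher and 0 lower, against 6.11% and 3.74% of all genes. All 4 libraries labelled MSX2-/- lay above both WT libraries for 6 of the 9 genes (ID2, ID4, SMAD6, SMAD7, BAMBI and SKIL), against 12.1% of all genes, and below both for 0, against 9.19%. The smallest p that an exact permutation of 2 against 4 libraries can give is 0.0667, so no single gene can pass 0.05 by that test. The median log2 fold change of the 9 genes was 0.52, with 8 of 9 positive, and that of all genes was 0.01. Leaving out any 1 library took the number of genes passing without the block from 2 to between 0 and 1. The log2 fold change of ID2 then stayed between 1.12 and 1.40, with adjusted p from 0.0628 to 0.275. That of BAMBI stayed between 1.10 and 1.67, and it passed without WT replicate 2 (adjusted p = 0.0382) but in none of the other 5 cases. With the block both genes passed whichever library was left out.

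The clones were then compared separately. Without the block, 0 of the 9 genes passed in either clone, where 0% of all genes were called higher and 0.00629% lower, and 1172 and 1181 genes had an unadjusted p under 0.05 in 1# and 2#. With the block, ID2 and BAMBI passed as higher in both clones, with log2 fold changes for ID2 of 1.22 ± 0.12 (SE, adjusted p = 0.0131) in 1# and 1.30 ± 0.12 (SE, adjusted p = 0.0109) in 2#. For BAMBI they were 1.28 ± 0.16 (SE, adjusted p = 0.0237) in 1# and 1.48 ± 0.16 (SE, adjusted p = 0.0153) in 2#. In these blocked fits 2.29% of all genes were called higher and 1.17% lower in 1#, and 2.59% and 1.13% in 2#. The clones share the WT libraries, so these values are not independent of each other.

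Between 2# and 1#, 0 of the 9 genes passed with or without the block, and 0% of all genes did in either direction. An unadjusted p under 0.05 was found for 225 genes without the block and 530 with it, none of them among the 9. The difference between the clones, 2# minus 1#, was 0.08 for ID2, with a blocked 95% interval from -0.21 to 0.37, and 0.20 for BAMBI, from -0.20 to 0.60.

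Each library labelled MSX2-/- was also set against the WT library of its own replicate number. The ratio was above 1 in 4 of 4 comparisons for ID2 (2.22 to 2.80), BAMBI (2.16 to 3.57), SMAD6 (1.26 to 2.07), SMAD7 (1.33 to 2.25), ID4 (1.23 to 2.01) and SKIL (1.07 to 1.61). It was below 1 in 4 of 4 for ID3, at 0.725 to 0.940. For ID1 it ranged from 0.961 to 1.22 and for PMEPA1 from 0.864 to 1.85, with 2 of 4 above 1 for each. The 4 comparisons use only 2 WT libraries.

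The size of the difference varied with the replicate number for several of the genes. The ratios of SMAD6 were 1.31 and 1.26 in replicate 1 and 1.84 and 2.07 in replicate 2 (1# and 2#), and those of SMAD7 were 1.33 and 1.57 against 2.24 and 2.25. For BAMBI the ratios were 2.82 and 3.57 in replicate 1 and 2.16 and 2.26 in replicate 2. The interaction, the effect in replicate 2 minus that in replicate 1, was 0.60 ± 0.13 (SE, adjusted p = 0.351) for SMAD6, 0.61 ± 0.17 (SE, adjusted p = 0.388) for SMAD7 and -0.51 ± 0.22 (SE, adjusted p = 0.478) for BAMBI. Of the 9 genes 0 passed, 5 had an unadjusted p under 0.05 (ID3, SMAD6, SMAD7, SKIL and PMEPA1), and 1817 of all genes did. Over all genes 0% were called higher and 0.0189% lower.

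Between replicate 2 and replicate 1, with genotype in the fit, ID1 and ID3 fell and ID2 rose. The log2 fold change was -0.76 ± 0.08 (SE, adjusted p = 0.00193) for ID1, -0.53 ± 0.08 (SE, adjusted p = 0.00541) for ID3 and 0.38 ± 0.09 (SE, adjusted p = 0.0199) for ID2. The other 6 genes did not pass, with log2 fold changes from -0.32 for PMEPA1 to 0.24 for SKIL. Of all genes, 15.6% were called higher and 18.9% lower. All 3 replicate 2 libraries lay below all 3 replicate 1 libraries for ID1 and ID3, as for 22.7% of all genes, and above them for 0 of the 9, against 18.8%. The labels give each number its own set letter but do not say what the sets are.

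The profiles of the 9 genes over the 6 libraries were compared after centring log2(FPKM + 1), by the root mean square difference. The closest pair was SMAD6 and SMAD7 (0.16), followed by PMEPA1 and SMAD6 (0.23), BAMBI and ID2 (0.23), and ID1 and ID3 (0.24). The widest pair was BAMBI and ID3 (0.87), and ID1 and ID2 were 0.80 apart. Among all 15895 genes, the 3 nearest to ID2 were KCNK5, a potassium channel, HS6ST2, a heparan sulfate sulfotransferase, and SPRY4, an inhibitor of receptor tyrosine kinase signaling, at 0.06 to 0.10. SPRY4 was 21.7 and 25.1 FPKM in WT, 54.1 and 69.8 in 1#, and 49.6 and 67.8 in 2#.

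The nearest genes to BAMBI were FAM163B, TSPAN32 and KCNH2 (0.07 to 0.11). Those to SMAD6 were ITPRIPL1, PROB1 and ASIC3, and those to SMAD7 were TNFAIP8, FAM20B and ADAP1. ID1 was nearest to SLC17A7, RHOQ and MTERF4, and ID3 to COMMD3-BMI1, CRELD1 and SRI. ID4 was nearest to SPC24, GP9 and RNF43, SKIL to ASTE1, RSL24D1 and RMND5A, and PMEPA1 to DPH5, PSD4 and TCF7. None of the 9 genes was among the 3 nearest to another of them. With 6 libraries and this many genes, close profiles are found for any gene, so this is a description.

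The genes that carry the signal to these targets did not pass the test. Of the 6 SMAD transducers (SMAD1, SMAD2, SMAD3, SMAD4, SMAD5 and SMAD9), 0 were higher and 0 lower, with or without the block, and their median log2 fold change was 0.04. SMAD4, the shared partner, was 32.2 and 36.8 FPKM in WT, 29.1 and 39.5 in 1#, and 27.7 and 42.9 in 2#, and so followed the replicate number. mRNA level does not report phosphorylation of these proteins.

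Of 21 regulators of SMADs, 0 passed without the block, and 3 were higher and 2 lower with it, at a median of 0.01. Beside this list and those below, 0.963% of all genes were called higher and 0.321% lower without the block. With the block these shares were 6.11% and 3.74%. SMURF2, a ubiquitin ligase that works with SMAD7, was 15.5 and 17.6 FPKM in WT, 25.3 and 31.5 in 1#, and 19.3 and 37.3 in 2# (log2 fold change 0.70, blocked adjusted p = 0.0442). TOB1, a repressor of BMP SMAD activity, was 5.09 and 4.73 FPKM in WT and 6.31 to 11.3 in libraries labelled MSX2-/- (0.72, blocked adjusted p = 0.0375), and STRAP, which binds SMAD7, also rose (0.32, blocked adjusted p = 0.0493). FKBP1A, which encodes the FKBP12 inhibitor of type I receptors, fell from 524 and 498 FPKM in WT to between 401 and 429 (-0.30, blocked adjusted p = 0.0163). CTDSP2, a SMAD phosphatase, fell as well (-0.30, blocked adjusted p = 0.0398).

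Other known targets of BMP SMADs were counted in the same fits. By gene set enrichment analysis, the study reported that the BMP pathway was not affected by MSX2 deletion. That method was not used here, and its genes may differ from those listed. Of 27 listed, 19 passed the filter on low values and 8 did not. Of the 19, 3 rose and 0 fell without the block, and 10 rose and 1 fell with it, with a median of 0.70. MSX2, the edited gene, is on this list and among the 10 that rose with the block, as is HAND1. Another gene that rose with the block is also counted on the list of TGFβ SMAD targets below. HEY2, a Notch and BMP target of arterial endothelium, was 30.6 and 27.5 FPKM in WT and 54.7 to 66.0 in libraries labelled MSX2-/- (log2 fold change 1.07, adjusted p = 0.0180). The cardiac and mesodermal factors TBX20 (1.82, adjusted p = 0.0323) and HAND1 (2.44, adjusted p = 0.0382) rose from 1.81 to 8.77 and from 1.73 to 14.2 FPKM in group means. The labels mention HAND1 overexpression without saying in which libraries, and its part in this value cannot be told apart from that of genotype.

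ENG, the endoglin co-receptor for BMP9 and TGFβ, was 90.9 FPKM on average in WT and 129 to 160 in libraries labelled MSX2-/- (0.70, adjusted p = 0.0524, 0.00977 with the block). GATA4, a mesodermal and endodermal factor, did not pass without the block (1.07, adjusted p = 0.165) and passed with it (adjusted p = 0.0450). EFNB2, an arterial ligand, was the gene that fell with the block (-0.57, adjusted p = 0.0209), and it is named after its values were seen. HEY1, a further endothelial BMP target, was 85.6 and 46.1 FPKM in WT, 74.3 and 52.5 in 1#, and 73.1 and 46.0 in 2#, and thus followed the replicate number as ID1 and ID3 did. It too is named after its values were seen.

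Of 30 other targets of TGFβ SMADs, 28 passed the filter, and LEFTY2 and NODAL did not. Without the block 4 rose and 0 fell, with it 16 rose and 0 fell, and the median was 0.59. COL1A1, a fibrillar collagen, was 27.7 and 55.9 FPKM in WT and 193 to 206 in libraries labelled MSX2-/- (log2 fold change 2.30, adjusted p = 0.0152). TAGLN, a smooth muscle actin-binding protein, was 15.8 and 33.1 FPKM in WT and 88.3 to 94.2 in libraries labelled MSX2-/- (1.94, adjusted p = 0.0300). The cytokine IL11 (1.35, adjusted p = 0.0318) and the matrix protease MMP2 (0.60, adjusted p = 0.0404) also rose. TGFBI (1.48, adjusted p = 0.0558) and LTBP2 (0.98, adjusted p = 0.0600), which encode matrix proteins, passed with the block (adjusted p = 0.0184 and 0.0104).

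ID proteins act on E proteins and, through them, on their tissue-restricted bHLH partners. Of 6 such genes, 0 passed in the unblocked fit. In the blocked fit TAL1, a hematopoietic regulator, rose (0.64, adjusted p = 0.0253) and the E protein TCF12 fell (-0.42, adjusted p = 0.0406). TCF3, which encodes E2A, was 317 and 440 FPKM in WT, 259 and 335 in 1#, and 299 and 336 in 2#, and did not pass with the block (-0.29, adjusted p = 0.0796).

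Several markers of the cell types that a CD31+ population can hold moved with genotype too. The summed FPKM of 10 endothelial markers was 2542 to 2662 in WT and 1587 to 1945 in libraries labelled MSX2-/-, and 8 of 10 fell with the block (3 without). The sum of 10 hematopoietic markers was 89.1 to 140 in WT and 158 to 234 in libraries labelled MSX2-/-, and 7 of the 8 tested rose with the block (1 without). That of 10 erythroid markers was 131 to 164 against 266 to 623, with 4 of 10 higher in both fits. In 1# and 2# this sum was 454 and 623 in replicate 1 and 269 and 266 in replicate 2. Of the 10, 8 had a positive log2 fold change and 2 (EPOR and TFRC) a negative one. The sum of 10 mesenchymal markers was 226 to 268 against 368 to 434, of which COL1A1 alone accounts for 27.7 to 55.9 and 193 to 206. Of the 8 tested, 5 had a positive log2 fold change and 3 (COL1A2, COL3A1 and PRRX1) a negative one. With the block 2 of the 8 rose, PDGFRB and COL1A1, and without it 1, COL1A1. COL1A1 is also counted among the TGFβ targets above.

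The sum of 10 pluripotency markers was 95.2 to 112 in WT and 115 to 136 in libraries labelled MSX2-/-, 1 of the 8 tested rose with the block (0 without), and NANOG and SOX2 were at most 0.373 and 0.128 FPKM. No marker was at 0 in all libraries. In bulk RNA a change in the number of cells of a type and a change in RNA per cell cannot be told apart. The part of cell makeup in the differences of ID2, BAMBI, SMAD6 and SMAD7 was not tested.

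In GENCODE v29 on GRCh38, ID2 lies on chromosome 2 from 8678845 to 8684453 and BAMBI on chromosome 10 from 28677342 to 28682939, both on the plus strand. SMAD6 lies on chromosome 15 from 66702228 to 66782848 on the plus strand, and SMAD7 on chromosome 18 from 48919853 to 48952052 on the minus strand. ID1 lies on chromosome 20 from 31605283 to 31606515. The strand setting of the count is not given in the sources used here, so reads of opposite genes cannot be assigned. ID2-AS1, opposite ID2, was at 0.744 to 1.88 FPKM and NKILA, opposite PMEPA1, at 1.67 to 5.65. AL022068.1, opposite ID4, was at most 0.946 FPKM, and AC013564.1, on the strand of SMAD6, at 0.802 to 2.14. Each was far below the member it overlaps.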

How the data were processed

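RNA-seq FPKM values of the 6 libraries were used as the authors deposited them, in 1 table with 1 column per library. The series' design text names BWA with ANOVA and TopHat with Cufflinks, and the submitters' processing notes name BWA, Bowtie, RSEM and hg19. Annotation, strand, filters and versions are not given in the sources used here. The table has 1 line without values, which was left out. Clone and replicate were read from the column names, since the titles number the clones 7 and 10.

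MSX2-/- was compared with WT by limma 3.58.1 in R 4.3.3, with its trend option, and log2(FPKM + 1) was fitted for 15895 genes whose mean reached 0.5 FPKM. P-values were adjusted over these genes by the Benjamini-Hochberg method, with a threshold of 0.05. Fold changes are on the log2(FPKM + 1) scale, which understates those of low genes. The fit was also run on simulated data with independent noise and no clone structure, which cannot vouch for the p-values given here. No replicate block was used in the primary fit. The replicate numbers were taken to pair the libraries, since the deviations of replicate 2 from replicate 1 correlated across genes in all 3 pairs of lines (r = 0.51, 0.54 and 0.64), so blocked values are given beside each member. The clones were compared in a fit of 3 groups, and the interaction of genotype and replicate in a fit of both.

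The members and lists were chosen with earlier results of these data known. Named were the 9 members, MSX2, list genes with an adjusted p under 0.05 in either fit (at most 6 a list, lowest p first) and the 3 nearest profiles of each member. Marker genes, SMAD4, TCF3, HEY1, EFNB2, LEFTY2 and NODAL are named beyond that rule, after their values were seen. Values of a withheld list gene are not reported here. Promoter sequences are from RefSeq (GRCh38.p14), and 97.0% of the 56595 symbols were found in GENCODE v29. Alternatives were a pseudocount of 0.1, no filter, a filter at 5 FPKM, rescaling by median ratios, 3 groups, no trend, and leaving out each library. The table gives no number of reads, so no counting interval is given.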

Additional observations from a re-analysis of the deposited data

Results flagged for a closer look

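PMEPA1 and ID1 stood out because both libraries labelled MSX2-/- of replicate 1 were below WT and both of replicate 2 were above it. For PMEPA1 the effect in replicate 2 exceeded that in replicate 1 by 0.96 on the log2 scale (SE 0.16, unadjusted p = 0.00238 by limma, adjusted p = 0.314). The PMEPA1 level was 93.6 and 47.4 FPKM in the WT libraries and 75.5 to 87.7 in those labelled MSX2-/-, and the WT libraries differed more from each other than those did. For ID1 the difference was 0.21 (SE 0.15, adjusted p = 0.637), and the replicate 1 libraries were within 0.06 of WT. Neither difference passed after adjustment over all genes.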

How the results depend on the processing

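The number of genes called between genotypes was 204. It was 1566 with the replicate block, 125 with no filter on low FPKM, 6 with 3 groups, and 19 to 82 when a library was left out. Of the 9 SMAD target genes 2 were called, against 4 with the replicate block, 0 with no filter, 1 (BAMBI) with rescaled libraries, 0 with 3 groups, 1 (BAMBI) without the trend, and 0 to 1 with a library left out. For ID2 the adjusted p ranged from 0.0540 to 0.275 in the settings where the call was lost, and for BAMBI from 0.0714 to 0.125. With the block, 507 genes were called with no filter, 1003 with 3 groups and 704 to 1002 with a library left out. Of the 9, the blocked fit then called 2 with no filter and 2 to 5 with a library left out. The settings tried together with the block were, except for leaving out a library, chosen after seeing the data. In each clone alone 0 of the 9 were called, and 2 with the replicate block. ID2 and BAMBI kept their direction in every alternative, and in the blocked fit they also kept their call. SMAD6 and SMAD7 lost theirs in the blocked fit with no filter (adjusted p = 0.148 and 0.110), and SMAD6 with 3 groups (0.0635) and without the trend (0.0730).

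The direction of ID1 and PMEPA1 changed with the library that was left out. ID1 was -0.38 without WT replicate 2, -0.05 without 1# replicate 1 and -0.03 without 2# replicate 1, and up to 0.52 when other libraries were left out. PMEPA1 was -0.20 without WT replicate 2 and up to 0.77 otherwise. With the block, ID1 was -0.030 without WT replicate 2 and up to 0.18 otherwise, and PMEPA1 was -0.20 without WT replicate 2 and 0.77 (adjusted p = 0.0406) without WT replicate 1. Causes were not tested.

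With 1 WT library left out, the other is assumed to vary like the MSX2-/- libraries. Each of the 9 symbols has 1 row, so summing rows changes nothing. The 2 WT libraries and the unknown read number limit precision.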
